A study of Mus musculus with 8 samples.

Results

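The genes described here are 10 members of the Toll-like receptor system in mouse Paneth cells: the receptors Tlr1, Tlr2, Tlr3, Tlr4, Tlr5, Tlr6 and Tlr9, the co-receptors Cd14 and Ly96, and the adaptor Myd88. They were chosen by symbol, as the rows of the count table whose Ensembl identifier carries 1 of these names in GENCODE, and they make up 10 of the 55414 genes in the table. Paneth cells were sorted from the small intestine of WT mice 3 hours after an injection of PBS (phosphate-buffered saline, the control) or of TNF (tumor necrosis factor, an inflammatory cytokine). There were 4 PBS and 4 TNF libraries, so the PBS group carried everything but the cytokine. TNF was given to the whole animal, and the sorted cells were therefore also exposed to whatever other cells released within that time. The mice were of the C57BL/6J strain, as the methods of the study state. The series calls the libraries biological replicates, and the study describes its Paneth cell samples as coming from individual mice. The sources used here do not give the age of the mice or the TNF dose.

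Toll-like receptors are membrane proteins that bind conserved microbial molecules. Tlr2 pairs with Tlr1 or Tlr6 to bind bacterial lipoproteins, Tlr4 binds lipopolysaccharide together with Ly96 (also called MD-2) after transfer by Lbp and Cd14, Tlr5 binds flagellin, and Tlr3 and Tlr9 bind nucleic acids inside endosomes. All of these receptors except Tlr3 signal through the adaptor Myd88, while Tlr3 and internalized Tlr4 use Ticam1 (also called TRIF), and both routes lead to NF-kB and to interferon regulatory factors. In Paneth cells, Myd88 signaling is known to maintain the expression of antimicrobial proteins, and in the mouse small intestine Tlr5 is known to be produced mainly by Paneth cells.

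Within 3 hours of TNF the RNA of 6 members was higher and that of 1 was lower. Tlr2 rose most, 41.6-fold, followed by Tlr6 (7.65-fold), Tlr3 (5.60-fold), Myd88 (4.52-fold), Cd14 (3.89-fold) and Ly96 (3.15-fold), whereas Tlr5 was 4.12-fold lower. Tlr1 did not pass the test, Tlr4 had too few counts to enter it, and Tlr9 was practically undetected. Values are CPM (counts scaled to a common library total) adjusted by TMM, a factor per library that sets most genes equal, and are called normalized CPM, and a gene was called when the edgeR quasi-likelihood test gave a Benjamini-Hochberg adjusted p under 0.05 over all genes tested. Of the 10 members 8 passed the filter on low counts and 7 were called. TNF changed the RNA of Paneth cells broadly, with 43% of the 13368 genes tested called, 23.3% as higher and 19.6% as lower. The values of the PBS and TNF libraries did not overlap for 7 of the 8 members tested, against 42.1% of all genes tested. These shares are the background against which the counts of members are to be read, and no test was made of the members as a set.

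The libraries held 23824717 to 32576077 counts in PBS and 25483606 to 29039086 in TNF. TNF replicate 4 stood apart from the rest, with 51.4% of its counts on alpha-defensin genes (32.02 to 37.9% in the other libraries) and a TMM factor of 0.448 (0.995 to 1.36 in the others). Where leaving out this library changed a call of a named gene or a count over a list, the value without it is given. The 12 Paneth cell markers examined took 40.8 to 54.5% of the counts in every library (at most 45.0% without TNF replicate 4). Reg3g, Pla2g2a and Nupr1 were called higher, and none of the 12 was called lower. In sorted cells measured in bulk, more RNA per cell and more cells of a type cannot be told apart.

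**Figure D1:**
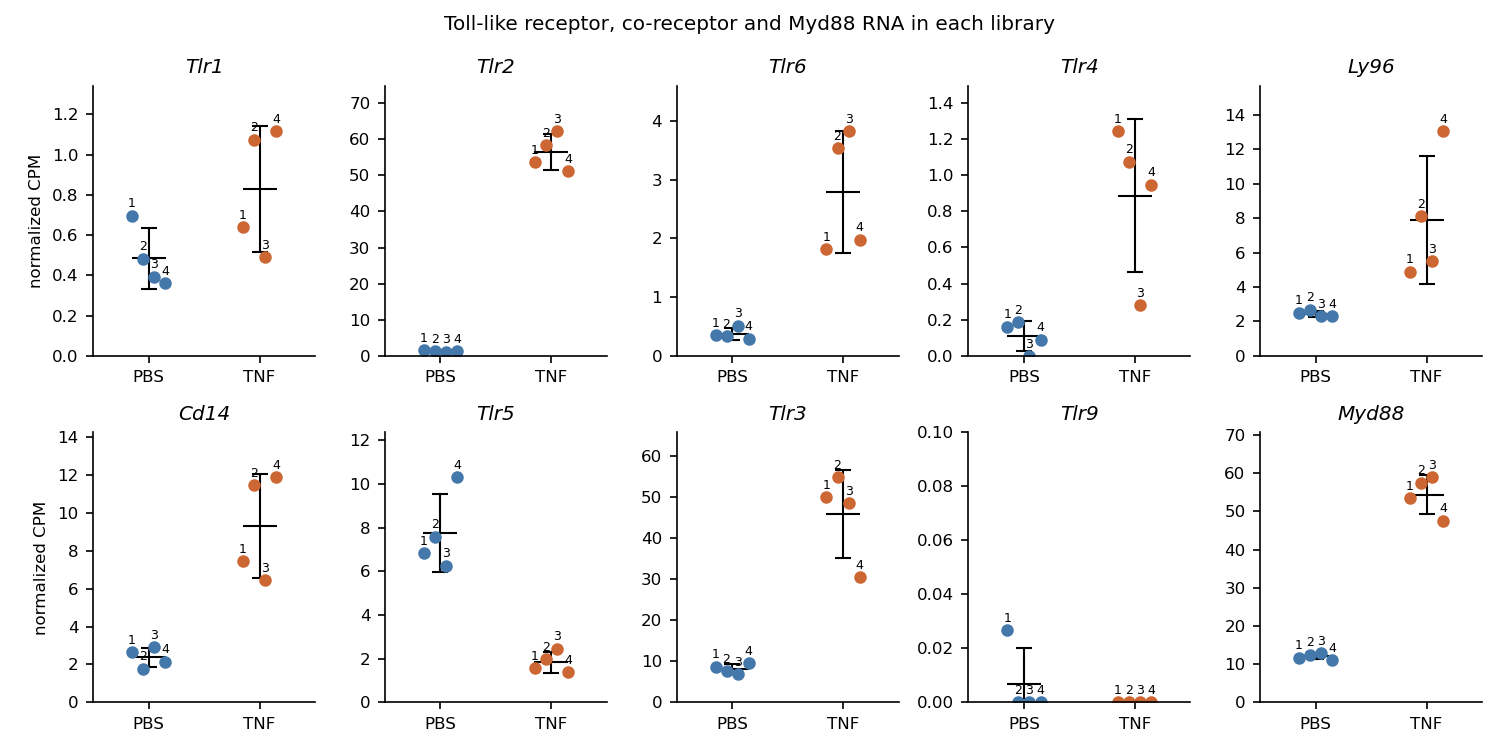
Normalized CPM (vertical axes, linear and starting at 0, each gene on its own scale) of the 10 genes in the 4 PBS (blue) and 4 TNF (orange) libraries. Each point is a library with its replicate number, and the black bars give the mean ± SD of 4 libraries. Tlr2, Tlr3, Tlr4, Tlr6, Cd14, Ly96 and Myd88 were higher in every TNF library than in any PBS library, Tlr5 was lower in every TNF library, Tlr1 overlapped, and Tlr9 was read once.

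The lipoprotein receptors differed most in size of response. Tlr2 (ENSMUSG00000027995, chr3:83743576-83749074 of GRCm39, minus strand) stood at 1.56, 1.38, 1.22 and 1.25 normalized CPM in PBS replicates 1 to 4 and at 53.7, 58.4, 62.3 and 51.2 in TNF replicates 1 to 4. The lowest TNF library was far above the highest PBS library, and TNF replicate 4 lay close to the other TNF libraries for this gene. The means were 1.35 ± 0.153 (SD, n = 4) in PBS and 56.4 ± 4.92 (SD, n = 4) in TNF. The log2 fold change was 5.38 (SE 0.14, edgeR adjusted p = 1.19e-08), the 54th largest rise of all genes tested. In raw counts this was 31 to 58 counts per library in PBS and 596 to 1773 in TNF.

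Tlr6 (chr5:65108704-65203497, minus strand), the partner of Tlr2 for diacylated lipoproteins, was low in both groups. It gave 13, 9, 13 and 13 counts in the PBS libraries and 51, 102, 109 and 23 in the TNF libraries. After scaling, the PBS libraries stood at 0.294 to 0.513 normalized CPM and the TNF libraries at 1.81, 3.53, 3.83 and 1.98. All TNF libraries were above all PBS libraries, with TNF replicates 2 and 3 near each other and replicates 1 and 4 lower. The log2 fold change was 2.94 (SE 0.34, edgeR adjusted p = 5.67e-05). Of the 4 libraries that the filter on low counts asks for, PBS gave 3 and TNF all 4, so Tlr6 would not have passed on its PBS libraries alone, and with no filter its log2 fold change was 2.91 (edgeR adjusted p = 5.91e-08). Tlr1 (chr5:65082022-65090941, minus strand), the partner for triacylated lipoproteins, lies beside Tlr6 and did not pass the test. Its counts were 26, 13, 10 and 16 in PBS and 18, 31, 14 and 13 in TNF, or 0.484 ± 0.151 and 0.830 ± 0.312 normalized CPM (SD, n = 4 each). The log2 fold change of Tlr1 was 0.73 (SE 0.37, edgeR adjusted p = 0.134) and its groups overlapped. Tlr1 and Tlr6 are close copies of each other. Of the 75-base stretches of their transcripts, 88.6% for Tlr1 and 92.2% for Tlr6 occur in no other gene, and the rest is shared between the pair, so a small part of their reads could be counted for either gene. Tlr6 also overlaps Fam114a1 on the opposite strand, which was not called (log2 fold change -0.07, SE 0.12, edgeR adjusted p = 0.684).

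Tlr2 and Tlr6 had the largest rises among the receptors that passed the filter, and Tlr5 was the 1 member that fell. The sequences before the RefSeq start sites of these genes are shown. They come from the RefSeq promoter table (build GRCm38.p6) and were placed on GRCm39 by their single exact match, at chr3:83749075-83749165 on the minus strand for Tlr2, at chr5:65116510-65116759 on the minus strand for Tlr6 and at chr1:182782103-182782310 on the plus strand for Tlr5. Tlr6 has 2 windows, of which the 1 with motif matches is printed and the other held no match. Of the 250 bases before each of these RefSeq starts, the part outside annotated exons of coding genes is printed, 5′ to 3′ on the strand of the gene. Capitals mark matches to the NF-kB motif (Tlr2) or to the interferon-stimulated response element, TTTCNNTTTC (Tlr6).
Tlr2: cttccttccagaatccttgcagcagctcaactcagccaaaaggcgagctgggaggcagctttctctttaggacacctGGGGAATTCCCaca
Tlr6: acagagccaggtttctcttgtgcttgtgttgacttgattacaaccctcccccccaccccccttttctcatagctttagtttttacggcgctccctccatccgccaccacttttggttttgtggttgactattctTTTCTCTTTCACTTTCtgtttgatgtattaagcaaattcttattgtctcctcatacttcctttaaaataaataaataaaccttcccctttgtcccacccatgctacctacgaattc
Tlr5: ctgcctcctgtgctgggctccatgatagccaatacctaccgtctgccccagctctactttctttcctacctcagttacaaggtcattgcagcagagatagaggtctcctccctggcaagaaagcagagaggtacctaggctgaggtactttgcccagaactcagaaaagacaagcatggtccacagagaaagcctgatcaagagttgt

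Both strands of the 250 bases were searched for these motifs and for the STAT site TTCNNNGAA. Of 32851 promoter windows of this length in the table, 7.25% held the NF-kB motif, 2.98% the interferon-stimulated response element and 7.02% the STAT site. The table held 9 windows for 7 of the members, and Tlr4, Cd14 and Ly96 were not searched. Positions are counted from the RefSeq starts, which can lie inside the genes as GENCODE places them. The windows of Tlr3, Tlr6 and Myd88 and 1 window of Tlr1 lay wholly inside their genes. Those of Tlr2 and Tlr5 and the other window of Tlr1 lay partly inside. Tlr2 had 2 overlapping NF-kB matches, 173 to 163 bases before its RefSeq start and outside the GENCODE gene. Tlr3 had 1 NF-kB match, 211 to 202 bases before its start and within an annotated exon. In Tlr6 a pair of overlapping matches to the interferon-stimulated response element lay 116 to 101 bases before 1 of its 2 starts. Myd88 had a match to the same element 40 to 31 bases before its start and an overlapping STAT match 46 to 38 bases before it, both within an annotated exon, as was its whole window. A STAT match was also found in 1 of the 2 windows of Tlr1, again within an annotated exon, and the windows of Tlr5 and Tlr9 held none of the 3 motifs. A match is a stretch of letters and not evidence of binding, and no match speaks only of these letters in this window.

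The genes of the lipopolysaccharide receptor were unequal in level. Tlr4 (chr4:66745783-66849936, plus strand), the signaling receptor itself, was nearly undetected in PBS, with 6, 5, 0 and 4 counts, and reached 35, 31, 8 and 11 counts in the TNF libraries. In normalized CPM the PBS libraries stood at 0 to 0.186 and the TNF libraries at 0.281 to 1.24. Every TNF library was above every PBS library, and TNF replicate 3 was the lowest of its group. Tlr4 failed the filter on low counts. Its group means of 0.109 and 0.886 normalized CPM differed 8.10-fold by an exact two-sided permutation test (p = 0.0286, unadjusted, the smallest p that the 70 assignments of 8 libraries allow). With no filter on low counts the log2 fold change of Tlr4 was 2.89 (SE 0.59, edgeR adjusted p = 0.000292).

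Cd14, the co-receptor that hands lipopolysaccharide to the receptor complex (chr18:36858120-36859851, minus strand), stood at 2.65, 1.79, 2.92 and 2.15 normalized CPM in PBS and at 7.46, 11.5, 6.46 and 11.9 in TNF. The groups were separate, with TNF replicates 2 and 4 above replicates 1 and 3. The log2 fold change was 1.96 (SE 0.24, edgeR adjusted p = 9.12e-05). Ly96, which binds the lipid part of lipopolysaccharide (chr1:16758275-16779961, plus strand), stood at 2.52, 2.68, 2.33 and 2.31 normalized CPM in PBS and at 4.90, 8.10, 5.51 and 13.1 in TNF. The PBS libraries were nearly equal and the TNF libraries were spread, with the highest value in TNF replicate 4. Its log2 fold change was 1.65 (SE 0.29, edgeR adjusted p = 0.000915) and 1.34 (adjusted p = 0.000135) without TNF replicate 4, and among all alternatives it was smallest with library size alone (1.12, adjusted p = 0.00759). Lbp, the soluble protein that carries lipopolysaccharide to Cd14, was scarce but higher in TNF, with 0.301 ± 0.0686 normalized CPM in PBS and 0.873 ± 0.451 in TNF (SD, n = 4 each, log2 fold change 1.55, SE 0.40, edgeR adjusted p = 0.00927). The counts of Lbp were 12, 6, 7 and 17 in PBS and 41, 18, 28 and 5 in TNF. TNF replicate 4 had the fewest and stood above the PBS libraries only after TMM scaling. Lbp reached the level of the filter in 2 PBS and 3 TNF libraries, so it passed only with its TNF libraries. With library size alone Lbp was not called. The adaptor Ticam2, which links internalized Tlr4 to Ticam1, had at most 4 counts in any library and was not tested.

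Tlr5 (ENSMUSG00000079164, chr1:182782311-182805500, plus strand), the flagellin receptor, went the other way. It stood at 6.84, 7.59, 6.27 and 10.3 normalized CPM in PBS and at 1.56, 1.97, 2.46 and 1.37 in TNF. The highest TNF library was below the lowest PBS library, and PBS replicate 4 was the highest of its group. The means were 7.75 ± 1.78 and 1.84 ± 0.481 (SD, n = 4 each). The log2 fold change was -2.04 (SE 0.23, edgeR adjusted p = 4.33e-05), the 244th largest fall among the genes tested. Per kilobase of exon, Tlr5 lay at 0.932 to 1.53 normalized CPM in PBS, above Tlr2 (0.222 to 0.283), and at 0.205 to 0.366 in TNF, below Tlr2 (9.31 to 11.3).

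Among the receptors for nucleic acids, Tlr3, which binds double-stranded RNA (chr8:45848702-45864117, minus strand), was the best expressed. It stood at 8.72, 7.59, 6.94 and 9.55 normalized CPM in PBS and at 50.0, 54.8, 48.5 and 30.5 in TNF. All TNF libraries were above all PBS libraries, and TNF replicate 4 was the lowest of its group. The log2 fold change was 2.49 (SE 0.19, edgeR adjusted p = 3.80e-06), and 2.65 without TNF replicate 4. The lncRNA gene Gm45542 overlaps Tlr3 on the opposite strand and was also higher in TNF, at 0.350 and 1.64 normalized CPM (log2 fold change 2.18, SE 0.37, edgeR adjusted p = 0.000838). The sources used here do not say whether strand was used in counting, so reads of Gm45542 and Tlr3 cannot be told apart where the genes overlap. Tlr9, the receptor for unmethylated CpG DNA (chr9:106099797-106104082, plus strand), gave 1 count in PBS replicate 1 and 0 in the other 7 libraries. Of the other mouse Toll-like receptors, Tlr7, Tlr8, Tlr11 and Tlr13 had 0 counts in all 8 libraries and Tlr12 had 1 count in all. A count of 0 allows up to 3 counts in a library.

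Myd88 (ENSMUSG00000032508, chr9:119165000-119170486, minus strand), the shared adaptor, stood at 11.7, 12.5, 12.9 and 11.1 normalized CPM in PBS and at 53.5, 57.5, 58.8 and 47.5 in TNF. The libraries of a group lay close together and the groups were far apart. The means were 12.05 ± 0.788 and 54.3 ± 5.08 (SD, n = 4 each), and the log2 fold change was 2.18 (SE 0.11, edgeR adjusted p = 3.26e-07). Myd88 overlaps Acaa1a, a gene of peroxisomal fat oxidation on the opposite strand, and 87.4% of the 75-base stretches of its transcript occur in no other gene. Acaa1a was not called, with 33.6 normalized CPM in PBS and 31.2 in TNF (log2 fold change -0.11, SE 0.10, edgeR adjusted p = 0.388).

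**Figure D2:**
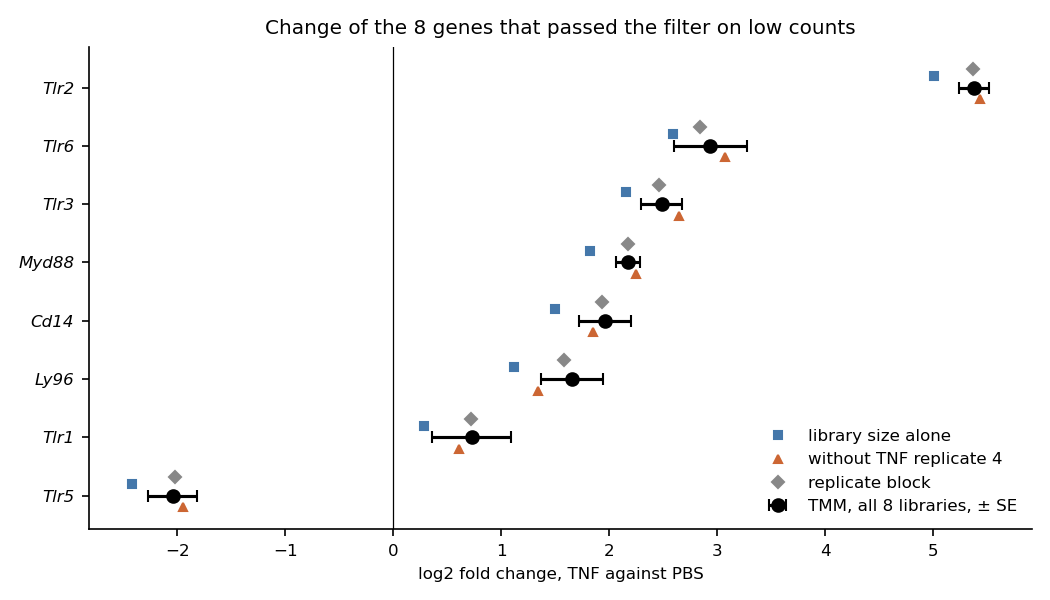
Log2 fold change of TNF against PBS (horizontal axis) for the 8 genes that passed the filter on low counts. Black circles with bars give the edgeR estimate ± SE from all 8 libraries with TMM scaling, blue squares the estimate with library size alone, orange triangles that without TNF replicate 4 and grey diamonds that with the replicate number as a block. Tlr2 lies near 5, Tlr5 near -2, and every symbol of a called gene keeps the side of 0 of its estimate.

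Compared per length of exon, the order of the members changed between the groups. In PBS, Myd88 was highest at 3.10 ± 0.203 normalized CPM per kilobase of exon (mean ± SD, n = 4), followed by Ly96 (1.99 ± 0.142), Tlr3 (1.53 ± 0.218), Cd14 (1.37 ± 0.293) and Tlr5 (1.15 ± 0.265). The ranges of Tlr3 and Cd14 and those of Cd14 and Tlr5 overlapped, so neither pair of neighbours differed beyond its spread. Tlr2 (0.245 ± 0.0278), Tlr1 (0.143 ± 0.0446) and Tlr6 (0.0767 ± 0.0198) came next in levels per kilobase, each above the following gene in all libraries. Tlr4 (0.0156 ± 0.0119) and Tlr9 were lowest and overlapped.

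In TNF, Myd88 was again highest, at 14.0 ± 1.31 normalized CPM per kilobase of exon, and Tlr2 moved from the sixth place to the second, at 10.3 ± 0.895. Tlr3 (8.59 ± 1.99), Ly96 (6.39 ± 3.00) and Cd14 (5.37 ± 1.59) followed in levels per kilobase, and each overlapped the gene before it. Tlr6 (0.573 ± 0.214) was above Tlr5 (0.274 ± 0.0715) without overlap, while the ranges of Tlr5 and Tlr1 (0.246 ± 0.0924) and those of Tlr1 and Tlr4 (0.126 ± 0.0601) overlapped. The order depended on the exon length used. With the longest transcript in place of all exons, Tlr5 came before Cd14 in PBS and Ly96 before Tlr3 in TNF, both between neighbours whose ranges overlap, and the range of Ly96 in PBS then met that of Myd88. The ranges of Tlr6 and Tlr5 in TNF also overlapped with that length, so their separation was lost.

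**Figure D3:**
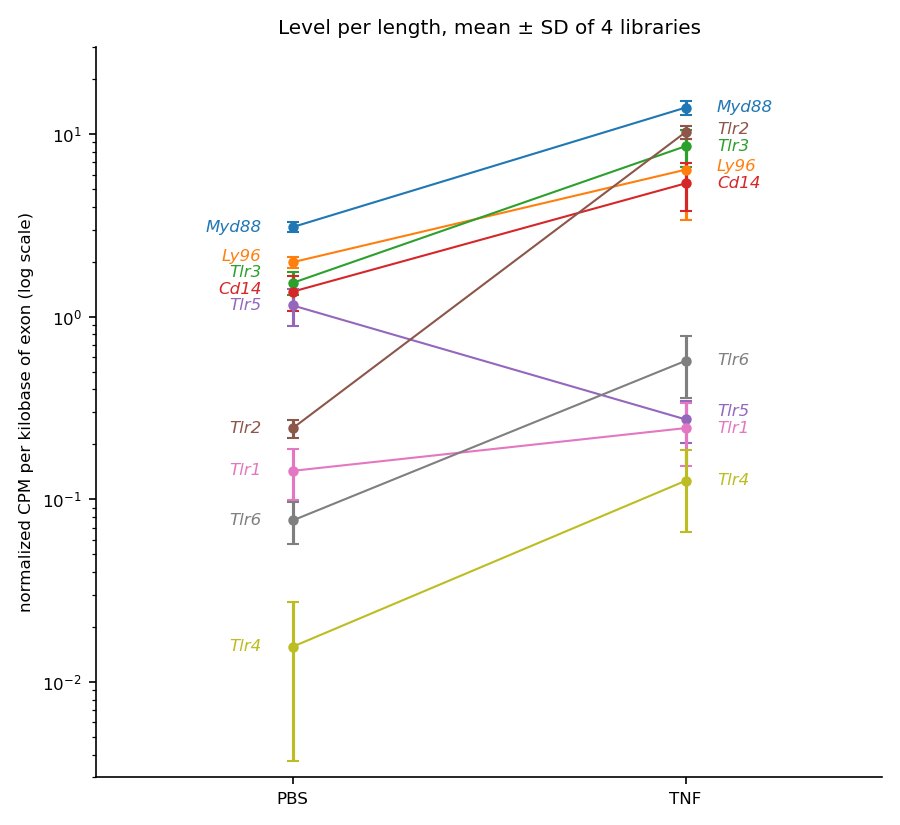
Level per length in normalized CPM per kilobase of exon (vertical axis, log scale) in PBS and TNF, as mean ± SD of 4 libraries and 1 line per gene. Tlr9, with 1 count in all, is not drawn. Tlr2 crosses from below Tlr5 to the level of Tlr3, and Myd88 is highest in both groups.

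For the 3 members with the smallest p, the genes whose log2 levels followed them most closely over the 8 libraries were sought among 8500 genes with a mean of at least 5 normalized CPM. Nearest to Tlr2 were Prr13, Ctps1 and 4930523C07Rik (Pearson r of 0.999 each), which rose by log2 fold changes of 2.10, 1.17 and 3.02. C2cd4b, Rab18 (both 0.999) and Sting1 (0.998) were nearest to Myd88, with log2 fold changes of 6.37, 1.23 and 3.46. Nearest to Tlr3 were Rnf123, Tgfbr2 (both 0.997) and Dsc2 (0.996), with log2 fold changes of 0.83, 2.74 and 0.86. Sting1 encodes the sensor adaptor STING of the cytosolic DNA pathway. These correlations over 8 libraries include the difference between the groups and are given as a description.

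Most genes that carry the signal from the receptors were also called higher. Of 20 adaptors and kinases 18 were tested, of which 13 were called higher and 1 lower (77.8% called, against 43% of all genes tested), with a median log2 fold change of 0.87 (0.03 over all genes tested). Tirap, the bridging adaptor between Myd88 and Tlr2 or Tlr4, rose from 12.5 ± 1.09 to 53.3 ± 8.70 normalized CPM (SD, n = 4 each, log2 fold change 2.09, SE 0.14, edgeR adjusted p = 1.63e-06). The kinases of the interferon branch followed. Tbk1 rose by 1.78 on the log2 scale (SE 0.15, edgeR adjusted p = 7.89e-06) and Ikbke by 1.63 (SE 0.18, adjusted p = 3.76e-05). Ticam1, the adaptor of Tlr3, rose by 0.65 on that scale (SE 0.16, edgeR adjusted p = 0.00638), with overlap between the groups. In the Myd88 branch, Traf6 (1.17, adjusted p = 0.000412), Irak2 (0.87, adjusted p = 0.000281) and Irak4 (0.52, adjusted p = 0.00556) were called higher by edgeR, and Irak1 was not called (log2 fold change -0.22, SE 0.11, adjusted p = 0.123). Ticam1, Traf6, Irak2 and Irak4 were also called with RLE scaling and with DESeq2. With library size alone the median of all genes moved to -0.38. Under that scaling 3182 of 13368 genes were called, 23.8% of the called genes being higher (54.3% with TMM). Of the 18 adaptors and kinases tested 4 were then called, a share near that of all genes. Ticam1, Traf6, Irak2 and Irak4 were not among them.

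Genes that restrain the pathway included some of its largest rises. Of 14 inhibitors 13 were tested, of which 8 were called higher and 1 lower (69.2% called, against 43% of all genes tested), with a median log2 fold change of 0.63. Tnfaip3 (A20), a ubiquitin-editing enzyme that limits NF-kB, rose from 3.48 ± 1.03 to 54.7 ± 3.83 normalized CPM (SD, n = 4 each, log2 fold change 3.96, SE 0.19, edgeR adjusted p = 2.72e-07). Its binding partner Tnip1 rose from 10.2 ± 2.04 to 78.1 ± 4.53 (log2 fold change 2.93, SE 0.16, adjusted p = 3.57e-07). Socs1, a suppressor of cytokine signaling, was near the detection limit in PBS at 0.133 ± 0.113 and reached 3.15 ± 0.364 (log2 fold change 4.40, SE 0.40, adjusted p = 1.23e-05, and 5.22 without PBS replicate 4). Only 1 PBS library of Socs1 reached the level of the filter, which the gene passed through the TNF libraries. Sigirr, a receptor that dampens IL-1 and Toll-like receptor signaling, was not called (log2 fold change -0.06, SE 0.19, edgeR adjusted p = 0.812), nor was Irak3, an inhibitory member of the IRAK family (0.33, SE 0.14, adjusted p = 0.0857), although Irak3 was called without TNF replicate 4 (0.44, adjusted p = 0.00936). Tollip, which binds IRAK proteins, was called (0.48, SE 0.15, adjusted p = 0.0277), but not with library size alone, with no filter, with the replicate block (0.45, adjusted p = 0.0523) or without any 1 library other than TNF replicate 4. With library size alone, where 3182 of 13368 genes were called, 5 inhibitors were called, 4 higher and 1 lower. Without TNF replicate 4, where 6923 of 13726 genes were called, there were 9 higher and 1 lower.

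Genes for folding, transport and ligand transfer were called in both directions, in a share near that of all genes. Of 17 genes 13 were tested, of which 2 were called higher and 4 lower (46.2% called, against 43% of all genes tested), with a median log2 fold change of -0.17. Hsp90b1 (gp96), the chaperone that most Toll-like receptors need to fold, fell from 310 ± 42.0 to 195 ± 14.3 normalized CPM (SD, n = 4 each, log2 fold change -0.67, SE 0.14, edgeR adjusted p = 0.00285). Cnpy4, a related folding factor, fell from 3.00 ± 0.310 to 1.57 ± 0.260 (log2 fold change -0.92, SE 0.19, adjusted p = 0.00303). Unc93b1, which escorts Tlr3 and Tlr9 to endosomes, stood at 28.9 ± 1.40 and 29.1 ± 2.7 (log2 fold change 0.01, SE 0.11, edgeR adjusted p = 0.928), a sign that turned under library size alone (-0.35), with no filter (-0.02) and without any of 3 single libraries. With library size alone, where 3182 of 13368 genes were called, 2 genes of the list were called, both lower. Without TNF replicate 4, where 6923 of 13726 genes were called, there were 8, of which 4 were higher and 4 lower. The IL-1 family shares Myd88 with the Toll-like receptors, but 10 of its 12 genes examined had at most 11 counts in any library and were not tested, including the receptor Il1r1. Among these 10, the cytokine gene Il1a had 11, 2, 6 and 4 counts in the PBS libraries and 0 in all TNF libraries, and with no filter on low counts 1 gene of the list was called lower. The remaining 2 were called higher. Il1rn, the IL-1 receptor antagonist, rose from 0.123 ± 0.106 to 3.72 ± 0.815 normalized CPM (SD, n = 4 each, log2 fold change 4.90, SE 0.50, edgeR adjusted p = 2.37e-05), with 0 to 8 counts in the PBS libraries, so that it passed the filter through the TNF libraries. Il1rap, the shared receptor subunit, rose by 0.85 on the log2 scale (SE 0.18, adjusted p = 0.00339) and was not called with library size alone.

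**Figure D4:**
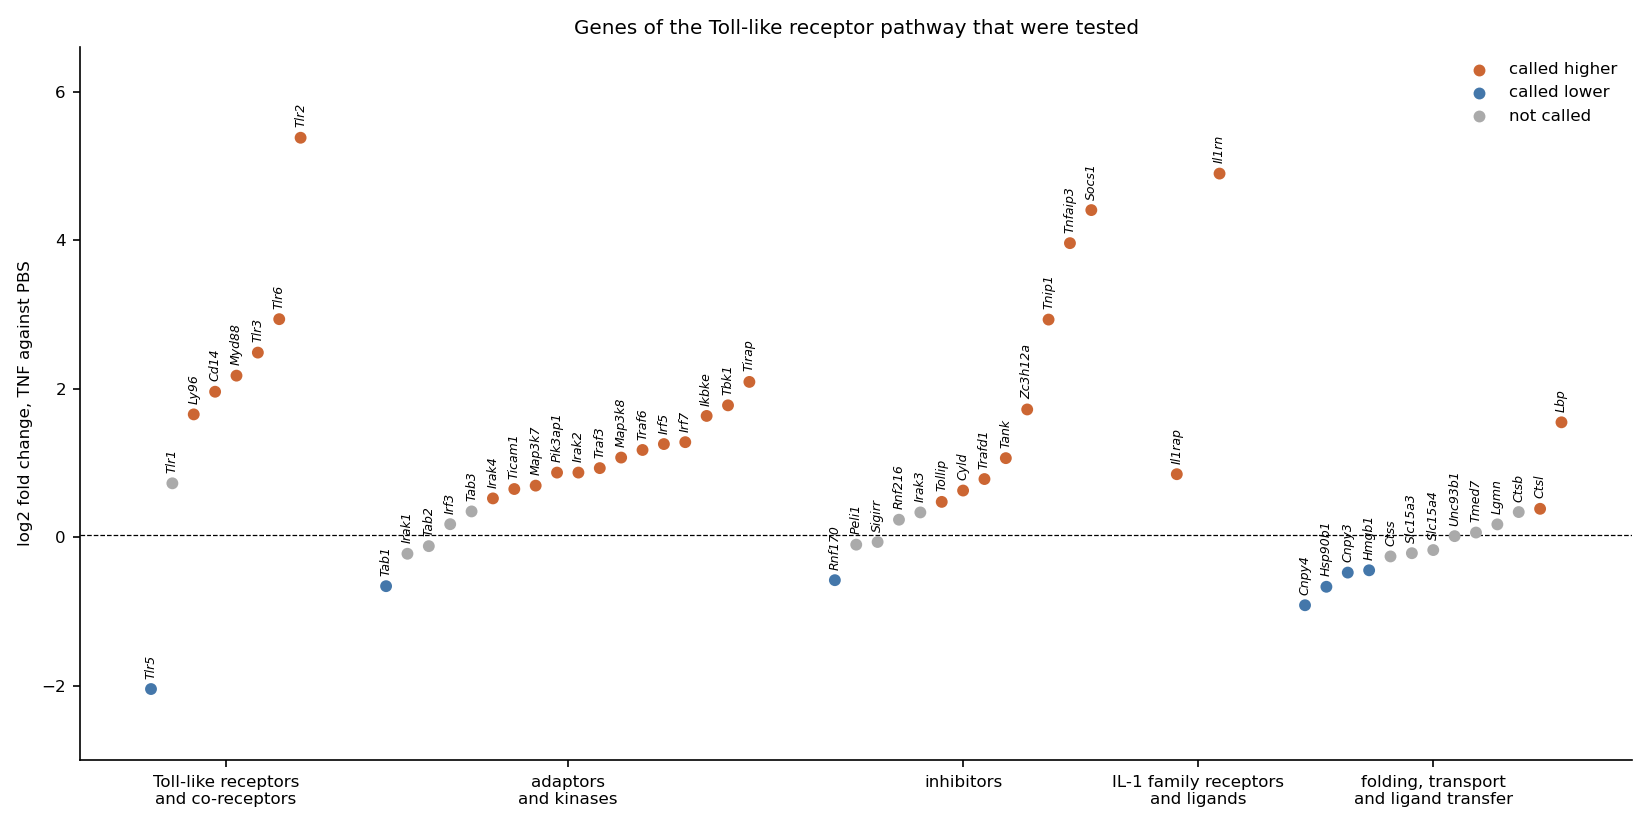
Log2 fold change of TNF against PBS (vertical axis) for every tested gene of the 10 members and of the 4 pathway lists with tested genes, ordered by value within each list. Orange points were called higher, blue points lower and grey points not called by edgeR, and the dashed line is the median of all genes tested (0.03). Of the adaptors and kinases 13 are orange and 1 is blue, and of the folding and transport genes 2 are orange and 4 are blue.

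Toll-like receptors and Cd14 are abundant in myeloid cells, and markers of other cells were therefore examined beside them. The cells had been purified on a cell sorter, which the study describes as leaving almost no other cells. Of 18 markers of macrophages, monocytes and dendritic cells, Adgre1, Itgax, Fcer1g, Tyrobp, Ly6c2, Ccr2, Clec7a and C1qb were at 0 counts in all 8 libraries, Ptprc had 0 to 10 counts, 2 markers were tested and none was called. Csf1r was present in every library with 31 to 125 counts, at means of 2.10 normalized CPM in PBS and 2.99 in TNF (edgeR adjusted p = 0.0721). C1qa had 24 counts in TNF replicate 4 and at most 1 count in the other libraries, and Cx3cr1 had at most 1 count in PBS and up to 5 in TNF. Their summed level was 9.83 to 14.2 normalized CPM in PBS and 13.0 to 70.5 in TNF (at most 15.5 without TNF replicate 4), the highest value being TNF replicate 4, where most of it was Lyz2, a close copy of the Paneth cell gene Lyz1. In that library Cd14 (11.9 normalized CPM) and Ly96 (13.1) were the highest of all 8 libraries, and Tlr2 (51.2), Tlr3 (30.5) and Myd88 (47.5) were the lowest of the TNF group. Of 8 neutrophil markers 5, S100a8 and S100a9 among them, were at 0 in all libraries and none was called, with sums of 0.885 to 1.46 in PBS and 1.00 to 4.30 in TNF (at most 1.03 without TNF replicate 4). Among 16 markers of lymphocytes and plasmacytoid dendritic cells 10 were at 0, with Cd3e and Cd4 among these, and Ms4a1, Cd79b and Cd52 were called higher, with sums of 0.521 to 0.749 in PBS and 2.02 to 5.67 in TNF (at most 2.91 without TNF replicate 4). Of 12 markers of stroma and endothelium, Vim and Vwf were called higher, Col1a2 and Col3a1 were at 0, and the sums were 0.789 to 1.34 and 2.46 to 3.87. The summed levels of lymphocyte and stromal markers thus moved with the group in the direction of Tlr2, Tlr3, Tlr4, Tlr6, Cd14, Ly96 and Myd88. Among other epithelial cells, the sum of 8 enterocyte markers moved in the direction of Tlr5, with 270.1 to 303.5 normalized CPM in PBS and 119.8 to 138.4 in TNF (Apoa4 and Anpep called lower, with most of the shift in Anpep, whose mean was 251.6 in PBS and 97.4 in TNF), and 5 of 8 stem and cycling cell markers, Lgr5 among them, were called lower, with sums that overlapped (1570 to 2447 and 1385 to 1957). Enteroendocrine markers summed to 10.3 to 13.2 in PBS and 30.3 to 61.0 in TNF, at most 39.9 without TNF replicate 4 (Chga, Chgb and Gcg called higher). Of 7 goblet cell markers Muc2 was called higher and Clca1 and Fcgbp lower, and of 4 tuft cell markers none was called. The part of any of these cells in the members' changes was not tested.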

How the data were processed

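RNA-seq counts per gene were analysed for 4 PBS and 4 TNF libraries of sorted Paneth cells, grouped by their labels. The authors deposited raw counts for 55414 Ensembl gene IDs, with no normalization. The submitters' processing notes name FastQC 0.12, STAR 2.7.10a, DESeq2 and the build mm39, and the extract protocol names a stranded mRNA kit. The sources used here do not give the counter, its strand setting or its treatment of shared reads. All columns were matched to labels (0 were not). Symbols and coordinates came from GENCODE mouse release 39 (GRCm39), which matched 54749 IDs.

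Counts were tested with the quasi-likelihood test of edgeR 4.0.16 in R 4.3.3, with TMM factors, filterByExpr on group, no covariate and Benjamini-Hochberg adjustment over 13368 genes, called under an adjusted p of 0.05. SE were derived from the F statistic. The procedure was tested on simulated data. Tlr4, which failed the filter, was compared by an exact two-sided permutation test of its normalized CPM (scipy 1.17.1). Levels per length used all exons of a gene merged. P-values measure the spread between these libraries. With no molecular identifiers described, the limit of 3 counts covers counting error only.

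The members and all gene lists were chosen with earlier results of these data known. Genes named were every member, the 3 genes of each pathway list with the smallest p, Tirap, Ticam1, Ticam2, Irak1, Irak2, Irak3, Irak4, Traf6, Unc93b1, Lbp, Sigirr and Tollip, and for 3 members the 3 genes with the highest correlation of log2 normalized CPM (offset 0.1). Other genes were named after their values were seen. Alternatives were RLE scaling, library size alone, TMM without the alpha-defensin genes, no filter beyond 1 count, at least 1 CPM in 4 libraries, DESeq2 1.42.0, limma-voom (limma 3.58.1), a block on the replicate number, a threshold of 0.01 on the adjusted p, the longest transcript for lengths, and leaving out each library.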

Additional observations from a re-analysis of the deposited data

Results flagged for a closer look

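The highest or lowest library of each group was compared with its nearest neighbour for the members and named genes, in 61 groups of 4 libraries with unequal values, by Dixon's test at the 95% level. Chance marks about 1 group in 20, and 3 were marked. Irak4, a kinase directly downstream of Myd88, stood at 32.9 normalized CPM in TNF replicate 4, above the other TNF libraries (27.8 to 28.7). Sigirr stood at 10.5 normalized CPM in PBS replicate 2, below the other PBS libraries (11.9 or more). Tlr9 was marked in PBS, where its single count put PBS replicate 1 at 0.0268 normalized CPM and the other 3 libraries were at 0. The other 9 receptors, co-receptors and Myd88 were not marked in either group.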

How the results depend on the processing

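Tlr2, Tlr3, Cd14, Ly96 and Myd88 were called higher and Tlr5 lower under every alternative run, as was Tlr6 wherever it was tested (not with at least 1 CPM in 4 libraries), and Tlr1 was called under none. Tlr4 was called higher with no filter (log2 fold change 2.89). It was also called (2.60 to 3.26) in 5 of the 8 fits without 1 library, where it passed the filter only through its TNF libraries, so these calls add no support. The log2 fold changes ranged over 5.01 to 5.44 for Tlr2, 2.59 to 3.10 for Tlr6, 2.15 to 2.65 for Tlr3, 1.82 to 2.25 for Myd88, 1.5 to 2.11 for Cd14, 1.12 to 1.80 for Ly96 and -2.42 to -1.90 for Tlr5. With the replicate block 7 members and 5087 genes were called. Equal replicate numbers gave no sign of a pairing, with correlations of deviations of 0.0464, 0.0760, -0.196 and -0.164. Only replicate 1 correlated best with its own number. With so few libraries per group this check cannot exclude a pairing. With library size alone 3182 of 13368 genes were called. Among them were 4 adaptors and kinases, 2 folding and transport genes, 5 inhibitors and 1 IL-1 family gene. Of the genes named by the rule, Irak3 (-0.0198) and Unc93b1 (-0.35) turned in sign. Other listed genes turned as well, such as Irf3 (-0.281) and Ctsl (-0.00363), of which Ctsl was called higher with TMM. Library size alone makes no correction for the makeup of a library, such as the alpha-defensin share of TNF replicate 4. TMM without the alpha-defensin genes called 5753 genes, against 5746 in the main fit. The part of the alpha-defensin share in the result with library size alone was not tested. At an adjusted p under 0.01, 3 folding and transport genes were called. Unc93b1 was at -0.0242 with no filter and between -0.0625 and 0.0881 when 1 library was left out, and Sigirr between -0.266 and 0.0682. The cause of these turns was not tested. Counts of genes called were 4757 to 6923 when 1 library was left out. Depth limits Tlr1, Tlr4, Tlr6 and Tlr9, with at most 109 counts in a library.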

Other observations

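Several pathway genes outside those named above were also called by edgeR and were chosen here after their values were seen. Among the transcription factors, Irf7, the master regulator of type I interferon genes, rose by 1.28 on the log2 scale (SE 0.17, edgeR adjusted p = 0.000157) and Irf5 by 1.25 (SE 0.15, adjusted p = 6.19e-05), whereas Irf3 was not called (0.18, SE 0.14, adjusted p = 0.337). Zc3h12a (Regnase-1), an RNase that degrades inflammatory mRNAs, rose from 9.94 ± 2.69 to 32.7 ± 10.9 normalized CPM (SD, n = 4 each, log2 fold change 1.72, SE 0.26, adjusted p = 0.000397), and Tank, a regulator of Traf proteins, from 17.4 ± 1.45 to 36.4 ± 4.10 (1.06, SE 0.12, adjusted p = 4.61e-05). Tab1, a partner of the kinase Map3k7 (TAK1), was the 1 adaptor or kinase gene called lower, from 14.5 ± 1.69 to 9.21 ± 0.331 normalized CPM (-0.66, SE 0.12, adjusted p = 0.00134), while Map3k7 itself was called higher (0.69, SE 0.12, adjusted p = 0.000743). With library size alone Irf7, Irf5, Tank and Map3k7 were not called, and Zc3h12a, Tab1 and Rnf170 were. Rnf170, a ubiquitin ligase that acts on Tlr3, was called lower in TNF (-0.58, SE 0.17, adjusted p = 0.0161), as were 19.6% of all genes tested. A relation to Tlr3 was not tested.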
